A study of Mus musculus with 18 samples.

Results

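The comparison asked whether loss of Aldh5a1 shifted gene expression in the forebrain by a different amount than in the cerebellum of the same animals. Tissue from 3 mice labelled Aldh5a1-/- (KO) and 3 mice labelled wild type (WT) was measured on 18 Affymetrix mouse arrays. Each animal gave 1 array of hippocampus, 1 of cortex and 1 of cerebellum. All 18 of the series' 18 arrays enter the comparison, which was chosen by a rule that uses no measured value. For each probe set, the log2 signals of hippocampus and cortex were averaged within an animal, and the log2 signal of its cerebellum was subtracted. The 3 KO differences were then set against the 3 WT differences. A positive result means that the KO minus WT effect was higher in forebrain than in cerebellum, and a negative result that it was lower. KO animals carried the numbers 3363, 3389 and 3403, and WT animals 3405, 3406 and 3396. Strain, age, sex and treatment are not given in the labels used here. The labels' animal numbers make the replicates separate animals, and their number limits the precision of every value.

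The product of Aldh5a1 is succinate semialdehyde dehydrogenase, which works in mitochondria and completes the breakdown of GABA to succinate. Its loss in humans and mice is known for the accumulation of GABA and gamma-hydroxybutyrate and for seizures. Myelin is made in the brain by oligodendrocytes, which wrap axons in membrane held together by proteins such as myelin basic protein and the products of Mobp, Mog, Mag and Mal. The hippocampus and cortex hold mostly excitatory projection neurons, whereas the cerebellum is dominated by granule neurons.

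Of 12488 probe sets, 8382 were kept after a filter on low signals, and 7554 of these carried a single gene symbol, naming 6249 genes. Aldh5a1 itself has 0 probe sets on this array, so the deletion could not be checked in the RNA. All 18 arrays lay closest to another array of their labelled region. Gabra6, a receptor subunit of cerebellar granule neurons, ranged from 1709.8 to 1926 in KO cerebellum and from 2113 to 2480.1 in WT cerebellum, but only from 18.7 to 32.3 in KO forebrain and from 10.9 to 29.7 in WT forebrain. Tbr1, a transcription factor of cortical projection neurons, ranged from 362 to 1367 in KO forebrain and from 382 to 1487 in WT forebrain, and stayed under 10 on every cerebellar array. One measure of RNA integrity moved with the comparison. The log2 ratio of the 3' to the 5' probe set of Gapdh, taken in forebrain minus cerebellum, was 0.04, 0.02 and -0.05 in the KO animals and 0.16, 0.11 and 0.12 in the WT animals, which do not overlap. The same measure for Actb was 0.17, 0.11 and 0.22 in KO and 0.08, 0.36 and 0.29 in WT animals, which overlap. The part of RNA integrity in the results that follow was not tested.

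The only gene whose knockout effect passed the test for a difference between forebrain and cerebellum was Mobp. It encodes myelin-associated oligodendrocyte basic protein of the compact myelin sheath. Both of its probe sets that passed were lower in KO forebrain. Their means in KO cerebellum were slightly above WT, and neither cerebellar effect passed. By limma's moderated test on the per-animal differences, with Benjamini-Hochberg adjustment over all 8382 probe sets, 2 probe sets were lower (0.0239% of those tested) and 0 were higher (0%). At an unadjusted p under 0.05, 766 probe sets lay below the threshold (9.14%), 372 of them higher and 394 lower, where 419 would be below it if p were uniform.

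The 250 bases before the annotated RefSeq start (GRCm38.p6) of Mobp, Mal and Mog, the 3 genes of the myelin list with differences beyond 1 on the log2 scale, are shown because these genes were lower together in KO forebrain. The stretches are chr9:120149492-120149741 on the plus strand for Mobp, chr17:37023399-37023648 on the minus strand for Mog and chr2:127656696-127656945 on the minus strand for Mal. Capitals mark ACAANG, a short form of the sequence bound by SOX proteins, the family of the oligodendrocyte regulator SOX10, on either strand; no other motif was searched.
Mobp: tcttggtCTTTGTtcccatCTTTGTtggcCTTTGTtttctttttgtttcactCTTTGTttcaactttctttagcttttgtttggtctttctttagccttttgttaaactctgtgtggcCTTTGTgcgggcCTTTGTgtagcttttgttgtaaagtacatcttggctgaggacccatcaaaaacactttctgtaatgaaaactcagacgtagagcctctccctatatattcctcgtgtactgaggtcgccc
Mog: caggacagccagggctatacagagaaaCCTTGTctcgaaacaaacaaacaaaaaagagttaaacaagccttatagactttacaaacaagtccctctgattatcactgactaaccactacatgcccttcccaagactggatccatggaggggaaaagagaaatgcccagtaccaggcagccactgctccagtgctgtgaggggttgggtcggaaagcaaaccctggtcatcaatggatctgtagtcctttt
Mal: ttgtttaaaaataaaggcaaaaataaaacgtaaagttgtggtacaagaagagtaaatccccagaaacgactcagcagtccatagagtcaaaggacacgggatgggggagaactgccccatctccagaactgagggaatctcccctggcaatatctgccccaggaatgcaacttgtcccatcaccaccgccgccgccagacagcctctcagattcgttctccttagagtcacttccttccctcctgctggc
The Mobp stretch holds 6 matches, the Mog stretch 1 and the Mal stretch 0. At least 1 match is present in 36.3% of 32851 promoters of the same length, and 6 or more in 5 of them (0.0152%), Mobp included. The count of 6 was taken from Mobp, the highest of the 3 genes, so that share is no test. A match describes these letters and is neither a shown binding site nor a cause.

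The Mobp probe set with the lowest p (99046_at) read 321, 251 and 336 in KO hippocampus, against 781, 754 and 425 in WT hippocampus. In cortex it read 229.7, 258 and 200.1 in KO and 554, 526 and 602 in WT animals. In cerebellum it read 937, 910.0 and 818 in KO and 745, 721 and 774 in WT animals. Every KO forebrain array thus lay below every WT array of its region, while every KO cerebellar array lay above every WT one. The forebrain minus cerebellum difference was -1.79, -1.84 and -1.66 in the KO animals and -0.18, -0.19 and -0.61 in the WT animals, on the log2 scale. The knockout effect was lower in forebrain than in cerebellum by a log2 difference of -1.43 ± 0.15 (SE, limma, n = 3 animals each, adjusted p = 0.0127), a 2.70-fold gap. It was made of a KO minus WT effect of -1.18 ± 0.10 in forebrain (limma, adjusted p = 0.0178) and of 0.25 ± 0.09 in cerebellum (limma, adjusted p = 0.516).

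**Figure D1:**
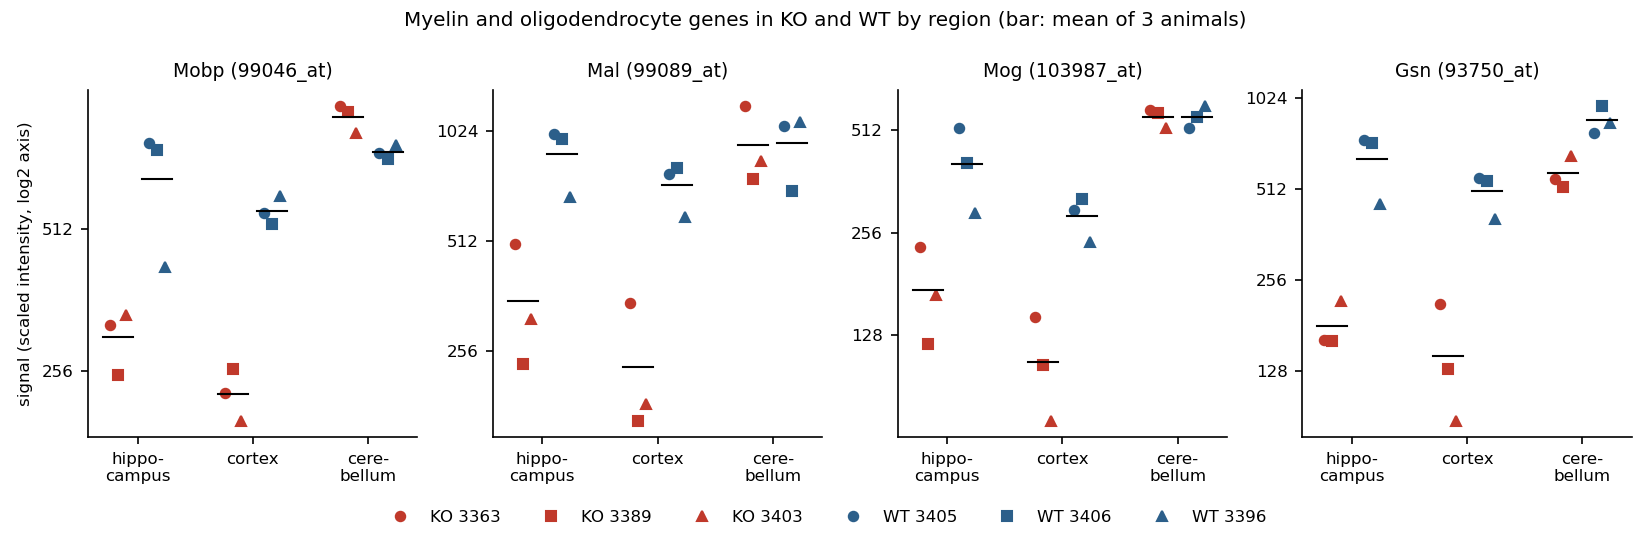
Signal (scaled intensity, log2 axis) of Mobp, Mal, Mog and Gsn on each array by region, KO in red and WT in blue, with a bar at the mean of 3 animals. In hippocampus and cortex all KO points lie below all WT points in each panel, and in cerebellum the KO and WT points of Mal and Mog overlap.

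The second Mobp probe set that passed (100536_at) averaged 786 ± 117 in KO and 1643 ± 335 in WT hippocampus (SD, n = 3 each), 674 ± 165 in KO and 1752 ± 197 in WT cortex, and 1839.9 ± 129 in KO and 1708 ± 101 in WT cerebellum. Its animals read -1.14, -1.40 and -1.52 in KO and 0.04, 0.24 and -0.34 in WT for forebrain minus cerebellum. The KO and WT animals did not overlap, and the effects differed by -1.33 ± 0.16 (SE, limma, adjusted p = 0.0287). The other Mobp probe sets pointed the same way without passing, 99047_at at -0.83 ± 0.22 (limma, adjusted p = 0.365) and 99048_g_at at -1.15 ± 0.27 (limma, adjusted p = 0.301). In both of these the cerebellar effect was also below 0, at -0.18 and -0.41, so the probe sets of Mobp do not give 1 answer on the sign in cerebellum. With an animal left out, the direction held each time, but the adjusted p of both passing probe sets missed the threshold when KO 3363 (0.0557 for both), KO 3389 (0.119 and 0.145), KO 3403 (0.0692 and 0.118) or WT 3406 (0.154 for both) was left out.

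Mal, which encodes a membrane protein of myelin and other lipid-rich membranes, read 501, 236 and 313 in KO and 1007, 975 and 676 in WT hippocampus. In cortex it read 346, 164 and 183 in KO and 781, 812 and 595 in WT animals. In cerebellum the values were 1203, 758 and 850.0 in KO and 1058, 701 and 1088 in WT animals. The genotypes were apart in both forebrain regions and mixed in cerebellum. The effects differed by -1.54 ± 0.24 (SE), which did not pass on the per-animal differences (limma, adjusted p = 0.0771) and passed in a fit of all 18 arrays with the animal as a block (limma, adjusted p = 0.0100). Its forebrain effect was -1.56, against -0.02 in cerebellum, with a 95% interval of -0.56 to 0.52 for the cerebellar effect.

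Mog, which encodes a glycoprotein of the outer face of myelin, read 233, 121 and 168 in KO and 519, 411 and 292 in WT hippocampus. In cortex the values were 145, 105 and 71.6 in KO and 298, 321 and 241 in WT animals, and in cerebellum 586, 577 and 519 in KO and 519, 559 and 605 in WT animals. The cerebellar means were 561 in both genotypes, while the genotypes were apart in both forebrain regions. Its effects differed by -1.35 ± 0.23 (SE), short of the threshold (limma, adjusted p = 0.123), with a forebrain effect of -1.35 and a cerebellar effect of 0.00 (95% interval -0.25 to 0.25).

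Over the 8 genes for myelin structural proteins that were kept, of 14 listed and 9 on the array, the effect was lower in forebrain than in cerebellum for 8 and higher for 0. The median difference was -0.53 on the log2 scale, beside -0.02 over all probe sets, 52.9% of which were below 0. Of the 8 genes 1, Mobp, passed, and 5 had an unadjusted p under 0.05 by limma, beside 9.14% of all probe sets. In 4 of the 8 genes (Mobp, Mal, Mog and Cldn11) all KO animals lay below all WT animals, as did 621 of all probe sets (7.41%). The median KO minus WT effect of the 8 genes was -0.86 in forebrain and -0.10 in cerebellum. The list's median per animal was -1.10, -1.25 and -1.22 in KO and -0.15, -0.17 and -0.83 in WT animals, so WT 3396 was the WT animal nearest to the KO animals. Without WT 3396 the list's median was -0.86, and without WT 3405 it was -0.33.

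The other members of that list did not pass. Mbp, for myelin basic protein, averaged 2290.5 ± 235 in KO and 3066 ± 823 in WT hippocampus, 1893 ± 110.0 in KO and 3359 ± 455 in WT cortex, and 2679.7 ± 95.7 in KO and 3051 ± 272 in WT cerebellum (SD, n = 3 each). Its effects differed by -0.42 ± 0.19 (SE, limma, adjusted p = 0.546), and a second, dimmer Mbp probe set (96310_at) gave 0.20 ± 0.18. Mag, for myelin-associated glycoprotein of the sheath next to the axon, gave -0.58 ± 0.24 (limma, adjusted p = 0.487), with -0.95 in forebrain and -0.37 in cerebellum. A second and far dimmer Mag probe set (161846_r_at) gave 0.07 ± 0.38. Cldn11, which encodes the tight junction protein of central myelin, gave -0.49 ± 0.15 in its brighter probe set (limma, adjusted p = 0.392). The value of its second kept probe set (161529_r_at) is not given here. Gjb1, a gap junction protein of oligodendrocytes, gave -0.36 ± 0.44, and Pmp22, a protein mainly of peripheral myelin, gave -0.01 ± 0.26.

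Other oligodendrocyte genes also gave mostly negative differences, none of which passed. Gsn, which encodes the actin-severing protein gelsolin and is abundant in oligodendrocytes, read 162, 161 and 218 in KO and 743, 726 and 456 in WT hippocampus. It read 213, 130.0 and 87.1 in KO and 555, 545 and 406 in WT cortex. In cerebellum it read 554, 518 and 657 in KO and 781, 965 and 845 in WT animals. KO values were below all WT values in every region, and the forebrain effect of -1.85 ± 0.17 passed (SE, limma, adjusted p = 0.0178). The cerebellar effect was -0.58 ± 0.13 (limma, adjusted p = 0.487), and the difference of -1.27 ± 0.21 between the effects did not pass (limma, adjusted p = 0.107). Of the 12 kept genes of this list, 10 had a KO effect lower in forebrain than in cerebellum and 2 higher. The median difference was -0.31, and 52.9% of all probe sets were below 0. By limma 0 passed and 5 had an unadjusted p under 0.05, beside 9.14% of all probe sets. The median was -0.48 without WT 3396 and -0.18 with hippocampus alone as forebrain.

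Among these, Nkx6-2, a transcription factor of oligodendrocytes, gave -0.99 ± 0.32 (limma, adjusted p = 0.396) and Erbb3, a neuregulin receptor, -0.57 ± 0.20 (limma, adjusted p = 0.442). Septin4, a cytoskeletal septin, gave -0.46 ± 0.18 in its brighter probe set (94079_at, limma, adjusted p = 0.477) and -1.65 ± 0.32 in a dim one (161234_f_at, limma, adjusted p = 0.213), whose cerebellar effect of 0.94 had the opposite sign to the -0.20 of the brighter one. In the dim probe set the effect was -1.67 in hippocampus and 0.27 in cortex. The 2 regulators of the lineage gave smaller values, Sox10 0.29 ± 0.21 and Myrf -0.31 ± 0.24, neither passing. For 3 genes of oligodendrocyte precursors the values were -0.52 for Ptprz1, -0.17 for Pdgfra and -0.08 for Vcan, where 52.9% of all probe sets were below 0. By limma 0 passed and 1, Ptprz1, had an unadjusted p under 0.05, beside 9.14% of all probe sets. Ptprz1 had an effect of -0.15 in forebrain and 0.37 in cerebellum.

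Summed over 6 kept markers of mature oligodendrocytes, the signal ranged from 3319.7 to 5006 on KO forebrain arrays and from 5809.9 to 8787 on WT forebrain arrays. In cerebellum the sum ranged from 7185 to 7891 in KO and from 7749 to 8897 in WT animals. None of the 6 markers was at or under the floor on all arrays. The summed signal of forebrain markers moved with the comparison too, and 4 of 5 markers gave differences below 0, beside 52.9% of all probe sets. Their sum over 5 kept markers, in forebrain minus cerebellum, was 3.66, 3.94 and 3.87 in KO and 4.09, 4.19 and 4.02 in WT animals on the log2 scale, which do not overlap, a difference of -0.28. Their summed signal ranged from 3800.5 to 4895 in KO and from 4319 to 5371 in WT forebrain. In cerebellum that sum ranged from 309.8 to 339 in KO and from 274 to 282 in WT animals. Cck made up most of it there, at 276 to 325 in KO and 255 to 263 in WT animals. Tbr1, Neurod6, Camk2a and Nrgn were near or under the floor in cerebellum, so their differences depend on the floor. The cerebellar sum thus rests mostly on Cck, and the part of the forebrain markers in the results was not tested. In whole tissue, fewer oligodendrocytes and less RNA per oligodendrocyte cannot be told apart. In 12 of 16 kept genes of cholesterol synthesis, much of which serves myelin membrane, the KO effect was also lower in forebrain than cerebellum. It was higher in 4, and the median difference was -0.27. By limma 0 of the genes passed and 3 had an unadjusted p under 0.05, beside 9.14% of all probe sets. The median was -0.10 with cortex alone as forebrain and -0.17 without WT 3396.

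Hmgcs1, for the synthase that supplies HMG-CoA, averaged 626 ± 74.8 in KO and 1036 ± 63.6 in WT hippocampus, 763 ± 227 in KO and 1028 ± 81.4 in WT cortex, and 736 ± 87.0 in KO and 764 ± 109 in WT cerebellum (SD, n = 3 each). The difference between the effects was -0.55 ± 0.14 (SE, limma, adjusted p = 0.365), with all KO animals below all WT animals, as in 7.41% of all probe sets. Idi1, an isomerase of the same pathway, gave -0.48 ± 0.14 (limma, adjusted p = 0.383), and Msmo1, which removes methyl groups from sterols, -0.43 ± 0.17 (limma, adjusted p = 0.474). The median of the list's KO minus WT effect was -0.30 in forebrain and -0.18 in cerebellum.

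**Figure D2:**
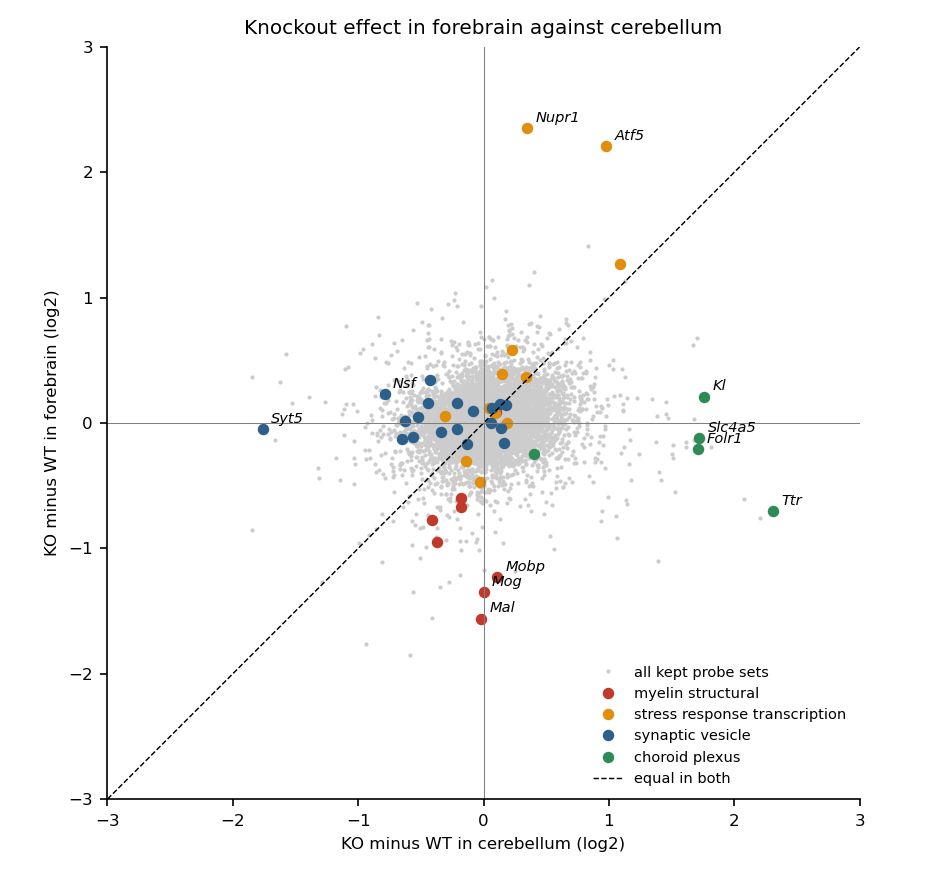
KO minus WT effect in cerebellum (x axis, log2) against that in forebrain (y axis, log2) for all 8382 kept probe sets in grey, with 4 gene lists in colour and the dashed line where both are equal. Mobp, Mal and Mog lie straight below the origin, Nupr1 and Atf5 high above the dashed line, and Syt5 and Nsf to the left.

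Across all probe sets the effects in forebrain and in cerebellum were only weakly related, with a Pearson r of 0.149 across 8382 probe sets, close to the 0.112 between hippocampus and cortex. Genes are not independent replicates, and the regions come from the same 6 animals. The effects had an SD over probe sets of 0.23 in forebrain, a mean of 2 arrays per animal, and of 0.31 in cerebellum, with 1 array per animal. Of the 766 probe sets at an unadjusted p under 0.05, the forebrain effect was the larger in size in 190 and the cerebellar effect in 576. On their own, the forebrain effects gave 1 probe set higher (0.0119%) and 4 lower (0.0477%), and the cerebellar effects gave 0 higher (0%) and 0 lower (0%) by limma. At an unadjusted p under 0.05, 786 probe sets were counted in forebrain and 803 in cerebellum.

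Among stress response genes, Atf5 rose in KO forebrain, and the difference between its forebrain and cerebellar effects did not pass after adjustment over all probe sets. Atf5, a transcription factor of the amino acid and mitochondrial stress responses, read 217, 430.1 and 259.7 in KO and 52.0, 49.7 and 63.0 in WT hippocampus. It read 107, 209.5 and 178 in KO and 40.8, 33.8 and 44.1 in WT cortex. In cerebellum it read 137, 67.3 and 99.1 in KO and 47.5, 61.5 and 40.9 in WT animals. Every KO array was above every WT array of its region, and the forebrain effect of 2.21 ± 0.23 passed (SE, limma, adjusted p = 0.0296). The cerebellar effect was 0.98 ± 0.29 (limma, adjusted p = 0.487), and the difference of 1.23 ± 0.44 did not pass (limma, adjusted p = 0.434), with an unadjusted p of 0.0168 and a 95% interval of 0.27 to 2.20. Without KO 3389 the difference was 0.73, and without KO 3363 it was 1.73. The per-animal differences were 0.15, 2.16 and 1.12 in KO and -0.05, -0.59 and 0.36 in WT animals, which overlap.

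Nupr1, a stress-induced nuclear protein, read 243, 284 and 205 in KO and 7.03, 45.0 and 40 in WT hippocampus. In cortex it read 196, 330.0 and 338 in KO and 98.3, 120.5 and 87.2 in WT animals, and in cerebellum 95.4, 68.1 and 38.2 in KO and 53.7, 57.3 and 39.3 in WT animals. KO arrays were above all WT arrays in both forebrain regions and mixed with them in cerebellum. One WT hippocampal value was below the floor of 9.46 and was set to it before the fit. The difference between the effects was 2.0 ± 0.43 (SE, limma, adjusted p = 0.244), from 2.35 in forebrain and 0.35 in cerebellum.

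For Eif4ebp1, a repressor of translation initiation, the effect was 1.27 in forebrain and 1.09 in cerebellum, a difference of 0.19 ± 0.47 with a 95% interval of -0.86 to 1.24. It was above the floor on 1 of the 3 WT cerebellar arrays, so its cerebellar effect depends on the floor. Mthfd2, a mitochondrial enzyme of folate metabolism, had 0.80 in forebrain and 0.66 in cerebellum, a difference of 0.14 ± 0.20 with an interval of -0.30 to 0.58. Atf4, the transcription factor that drives many of these genes, gave 0.08 in forebrain and 0.09 in cerebellum.

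Of the 12 kept genes of the stress transcription list, 8 had a KO effect higher in forebrain than in cerebellum and 4 lower. Over all probe sets 47.1% were above 0. By limma 0 passed and 3 had an unadjusted p under 0.05, beside 9.14% of all probe sets. The list's median of 0.13 was 0.48 with hippocampus alone as forebrain and -0.10 with cortex alone, and 0.38 without KO 3363. Slc7a5, the light chain of a transporter for large neutral amino acids, averaged 809.8 ± 196 in KO and 527 ± 17.7 in WT hippocampus, 533 ± 77.5 in KO and 356 ± 23.1 in WT cortex, and 516 ± 16.8 in KO and 602 ± 96.7 in WT cerebellum (SD, n = 3 each). Its effects differed by 0.79 ± 0.17 (SE, limma, adjusted p = 0.244), with all KO animals above all WT animals, as in 7.06% of all probe sets. Slc3a2, its heavy chain partner, gave 0.43 ± 0.13 (limma, adjusted p = 0.387), and Slc38a2, a neutral amino acid transporter, gave -0.59 ± 0.17 (limma, adjusted p = 0.383). Of the 6 kept amino acid transporters, 5 had a higher KO effect in forebrain and 1 a lower one. Their median difference was 0.28 (0.18 with hippocampus alone as forebrain). By limma 0 passed and 4 had an unadjusted p under 0.05, beside 9.14% of all probe sets.

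Psat1, an enzyme of serine synthesis, averaged 868 ± 181 in KO and 656 ± 31.8 in WT hippocampus, 915 ± 185 in KO and 669 ± 43.7 in WT cortex, and 438 ± 43.4 in KO and 509 ± 43.2 in WT cerebellum (SD, n = 3 each). The difference between the effects was 0.63 ± 0.16 (SE, limma, adjusted p = 0.365). Asns, asparagine synthetase, gave 0.35 ± 0.13 (limma, adjusted p = 0.443). In both genes all KO animals were above all WT animals, as in 592 of all probe sets (7.06%). Of the 7 kept genes of serine, asparagine and folate synthesis, 5 had a higher KO effect in forebrain and 2 a lower one. The median difference was 0.14, and 47.1% of all probe sets were above 0. By limma 0 passed and 2 had an unadjusted p under 0.05, beside 9.14% of all probe sets. Without KO 3403 the median was 0.05, and without KO 3363 it was 0.26.

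Most genes of reactive gliosis and of microglia gave positive differences, none of which passed. Gfap, the intermediate filament of astrocytes, read 395, 785 and 654 in KO and 199, 353 and 366 in WT hippocampus. It read 222, 341 and 312 in KO and 161, 158 and 224 in WT cortex, and 161, 194 and 161 in KO and 138, 284 and 252 in WT cerebellum. KO and WT values overlap in cerebellum, and the lowest KO cortical value lies below the highest WT one. The effects differed by 1.17 ± 0.21 (SE), from 0.84 in forebrain and -0.33 in cerebellum, which did not pass (limma, adjusted p = 0.164), and a second probe set (94143_at) gave 1.01 ± 0.31 (limma, adjusted p = 0.387). Of the 8 kept genes of reactive gliosis, 6 had a higher KO effect in forebrain than in cerebellum and 2 a lower one. Over all probe sets 47.1% were above 0 and 52.9% below. By limma 0 passed and 1 had an unadjusted p under 0.05, beside 9.14% of all probe sets. The median of 0.12 was -0.08 with cortex alone as forebrain and -0.01 without KO 3403. Of 10 kept genes of resting astrocytes, 1 had a higher KO effect in forebrain and 9 a lower one. Their median difference was -0.07 (-0.17 without KO 3403, -0.13 without WT 3396), and 0 passed by limma, with 0 at an unadjusted p under 0.05.

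Of 12 kept microglial genes, 12 had a KO effect higher in forebrain than cerebellum and 0 lower, beside 47.1% of all probe sets above 0. Their median difference was 0.24, and 0 passed by limma while 1 had an unadjusted p under 0.05, beside 9.14% of all probe sets. The median rested on single animals, at 0.07 without KO 3403 and 0.42 without KO 3363. The list's median forebrain minus cerebellum value per animal was 0.64, 1.14 and 1.30 in KO and 0.96, 0.80 and 0.67 in WT animals, which overlap. Cd68, a lysosomal protein of phagocytes, averaged 165 ± 20 in KO and 107 ± 6.24 in WT hippocampus, 169 ± 22.1 in KO and 114 ± 4.96 in WT cortex, and 60.3 ± 7.90 in KO and 61.8 ± 9.29 in WT cerebellum (SD, n = 3 each). Its effects differed by 0.62 ± 0.20 (SE, limma, adjusted p = 0.409), and those of Csf1r, the receptor microglia need to survive, by 0.32 ± 0.15 (limma, adjusted p = 0.562). The summed signal of 6 microglial markers ranged from 1162 to 1677 in KO and from 1118 to 1265 in WT forebrain, and from 626 to 660.1 in KO and from 568 to 791 in WT cerebellum.

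**Figure D3:**
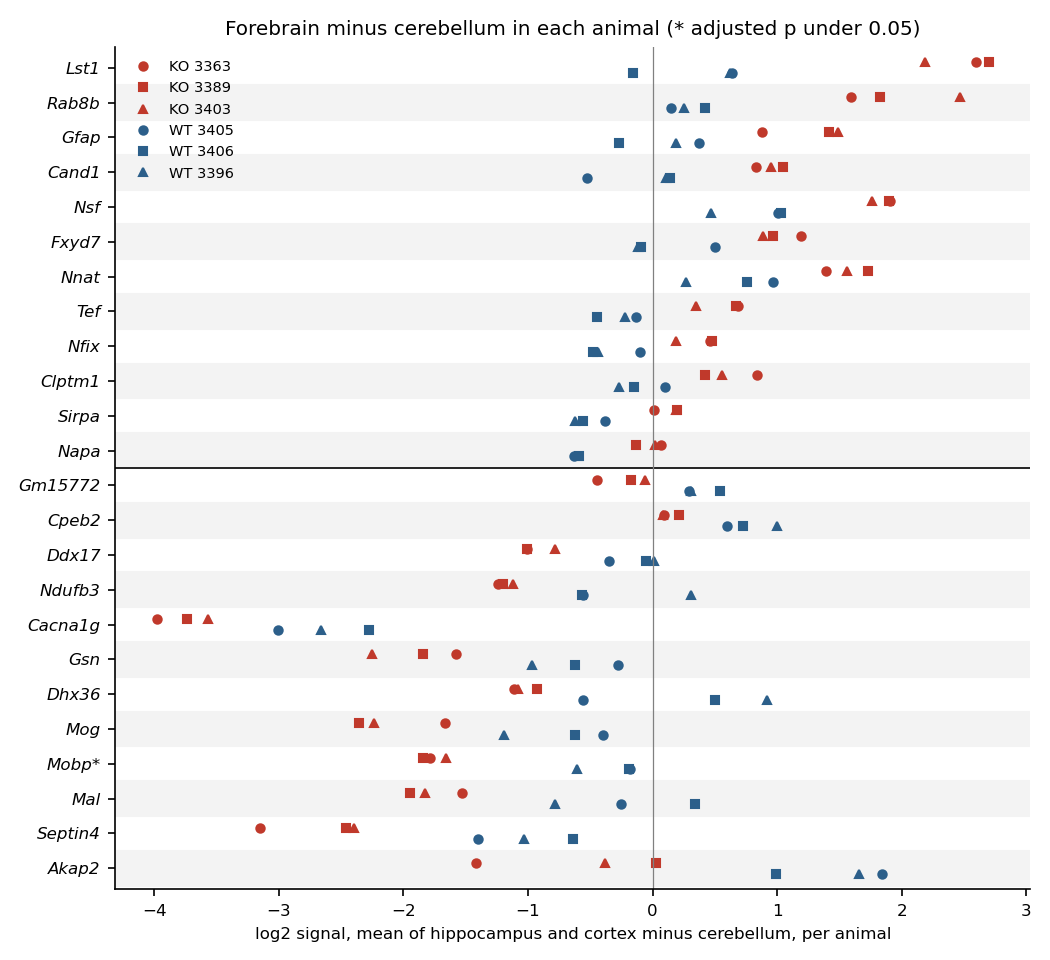
Log2 signal in forebrain (mean of hippocampus and cortex) minus cerebellum in each animal, for the 12 genes with the lowest p in each direction, KO in red above WT in blue. The genotypes are apart in all 24 genes because the genes were chosen for that difference, and only Mobp carries the asterisk of an adjusted p under 0.05.

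On the positive side, the genes with the lowest p were mostly lower in KO cerebellum. Among the 12 named, the cerebellar effect was the larger in size in 10, and adjusted p (limma) ran from 0.0626 to 0.236. The cerebellar effect, from 1 array per animal, was also the larger in 576 of the 766 probe sets at an unadjusted p under 0.05. Lst1, a gene of myeloid cells, read 111, 125 and 108 in KO and 81.8, 90.9 and 113 in WT hippocampus. In cortex it read 82.2, 81.9 and 62.0 in KO and 55.7, 32.4 and 41.9 in WT animals, and in cerebellum 15.7, 15.6 and 17.9 in KO and 43.2, 60.7 and 44.8 in WT animals. KO arrays were below all WT arrays in cerebellum and above them in cortex. The effects differed by 2.13 ± 0.30 (SE), from 0.55 in forebrain and -1.58 in cerebellum, which did not pass on the per-animal differences (limma, adjusted p = 0.0626) and passed with the animal as a block (limma, adjusted p = 0.0100).

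Nsf, the ATPase that takes apart SNARE complexes after vesicle fusion, read 1840.0, 1518 and 1905 in KO and 1391, 1844 and 1827 in WT hippocampus. It read 2373, 1766 and 1842 in KO and 1596, 1554 and 1346 in WT cortex, and 556, 437 and 553 in KO and 739, 829 and 1135 in WT cerebellum. The genotypes overlap in hippocampus and are apart, in opposite directions, in cortex and cerebellum. The effects differed by 1.02 ± 0.16 (SE), from 0.23 in forebrain and -0.79 in cerebellum, which did not pass (limma, adjusted p = 0.0771) and passed with the animal as a block (limma, adjusted p = 0.0396). Napa, which encodes the adaptor that brings Nsf to SNARE complexes, gave 0.60 ± 0.12 (limma, adjusted p = 0.213), from 0.16 in forebrain and -0.44 in cerebellum.

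Syt5, a calcium sensor of secretory vesicles, averaged 512 ± 32.0 in KO and 523 ± 30.4 in WT hippocampus and 478 ± 95.6 in KO and 495 ± 55.5 in WT cortex (SD, n = 3 each). In cerebellum it read 16, 27.4 and 47.8 in KO and 82.2, 116 and 85.3 in WT animals, which do not overlap. Its forebrain effect of -0.05 had a 95% interval of -0.27 to 0.17, and the effects differed by 1.71 ± 0.36 (SE, limma, adjusted p = 0.243). Of 19 kept genes of synaptic vesicles, 14 had a KO effect higher in forebrain than in cerebellum and 5 lower. Their median difference was 0.27, and 47.1% of all probe sets were above 0. By limma 0 passed and 8 had an unadjusted p under 0.05, beside 9.14% of all probe sets. All KO animals lay above all WT animals in 5 genes, beside 7.06% of all probe sets, and below them in 0. The median effect of the list was 0.02 in forebrain and -0.21 in cerebellum. Its median difference per animal was 0.51, 0.60 and 0.44 in KO and 0.48, 0.24 and 0.40 in WT animals, which overlap.

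**Figure D4:**
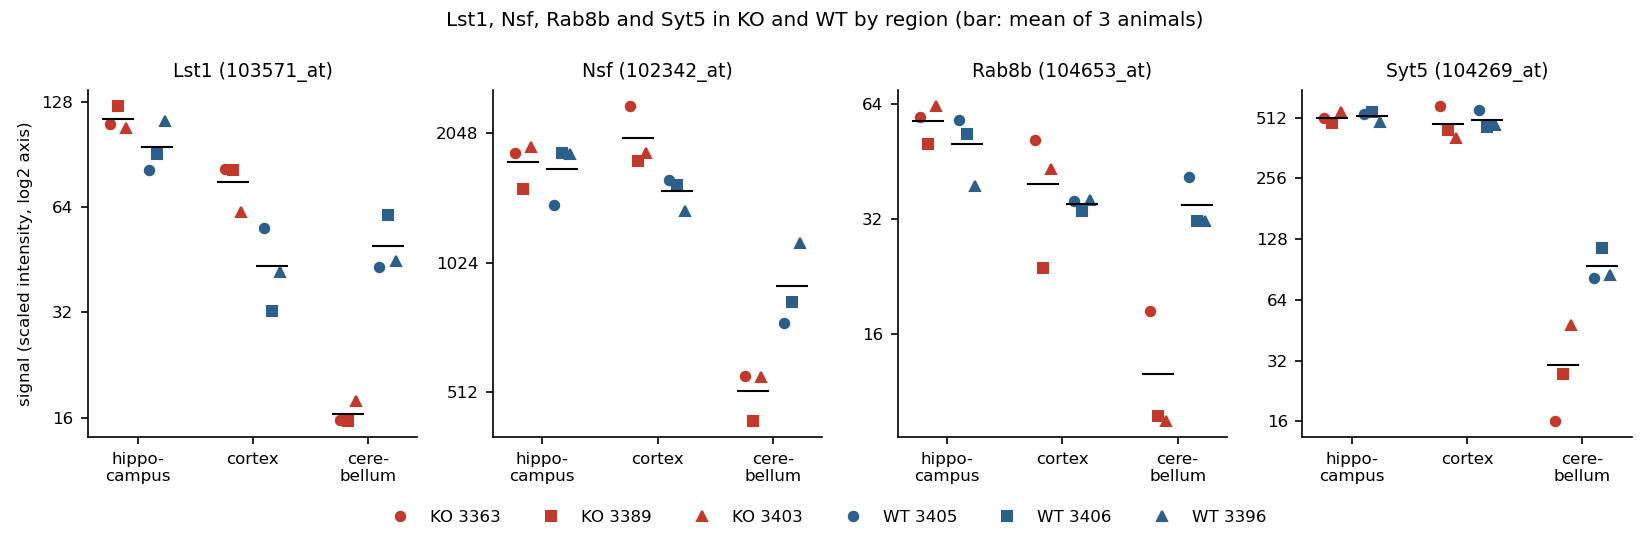
Signal (scaled intensity, log2 axis) of Lst1, Nsf, Rab8b and Syt5 on each array by region, KO in red and WT in blue, with a bar at the mean of 3 animals. In cerebellum all KO points lie below all WT points in each of the 4 panels, while in hippocampus the genotypes overlap in all 4.

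Rab8b, a small GTPase of membrane traffic, averaged 12.5 ± 5.08 in KO and 34.7 ± 5.49 in WT cerebellum (SD, n = 3 each), with 1 KO value under the floor. Its effects differed by 1.69 ± 0.34 (SE, limma, adjusted p = 0.215). Tef, a circadian transcription factor, averaged 417 ± 51.3 in KO and 699 ± 86.1 in WT cerebellum and gave 0.83 ± 0.15 (limma, adjusted p = 0.123), with a forebrain effect of 0.09. Other positive genes named were Cand1 at 1.04, a regulator of cullin ubiquitin ligases, and Fxyd7 at 0.92, a brain regulator of the sodium pump. Nnat gave 0.89, Nfix 0.72, Clptm1 0.71 and Sirpa 0.65, and none of these genes passed. Nfix, Sirpa and, among the negative genes below, Ddx17 have other kept probe sets. The value given for them is that of the probe set with the lowest p by limma.

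The remaining negative genes named were Akap2 at -2.08, Dhx36 at -1.33, Cacna1g at -1.11, Ndufb3 at -0.92, Ddx17 at -0.81, Cpeb2 at -0.65 and Gm15772 at -0.61, none passing. In Akap2, an anchoring protein of protein kinase A, the values were dim, with means of 32.4 ± 9.93 in KO and 9.99 ± 3.80 in WT cerebellum (SD, n = 3 each), and only 1 of 3 WT cerebellar arrays was above the floor. Cacna1g, a low-voltage calcium channel abundant in cerebellar Purkinje cells, had -0.96 in forebrain and 0.16 in cerebellum (limma, adjusted p = 0.270 for the difference). Its forebrain regions were unlike, at -1.74 in hippocampus and -0.18 in cortex. Ndufb3 is a subunit of respiratory complex I and was 0.80 higher in KO than WT cerebellum, against -0.12 in forebrain, on the log2 scale.

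For oxidative phosphorylation the KO effect was lower in forebrain than in cerebellum in 40 of 48 kept genes and higher in 8. The median difference was -0.17, and 52.9% of all probe sets were below 0. By limma 0 passed and 5 had an unadjusted p under 0.05, beside 9.14% of all probe sets. All KO animals lay below all WT animals in 14 genes, beside 7.41% of all probe sets, and above them in 2, beside 7.06%. The list's median was -0.07 in forebrain and 0.04 in cerebellum. Cox7b and Cox6c, subunits of cytochrome c oxidase, gave -0.43 ± 0.12 (limma, adjusted p = 0.365) and -0.34 ± 0.12 (limma, adjusted p = 0.428).

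**Figure D5:**
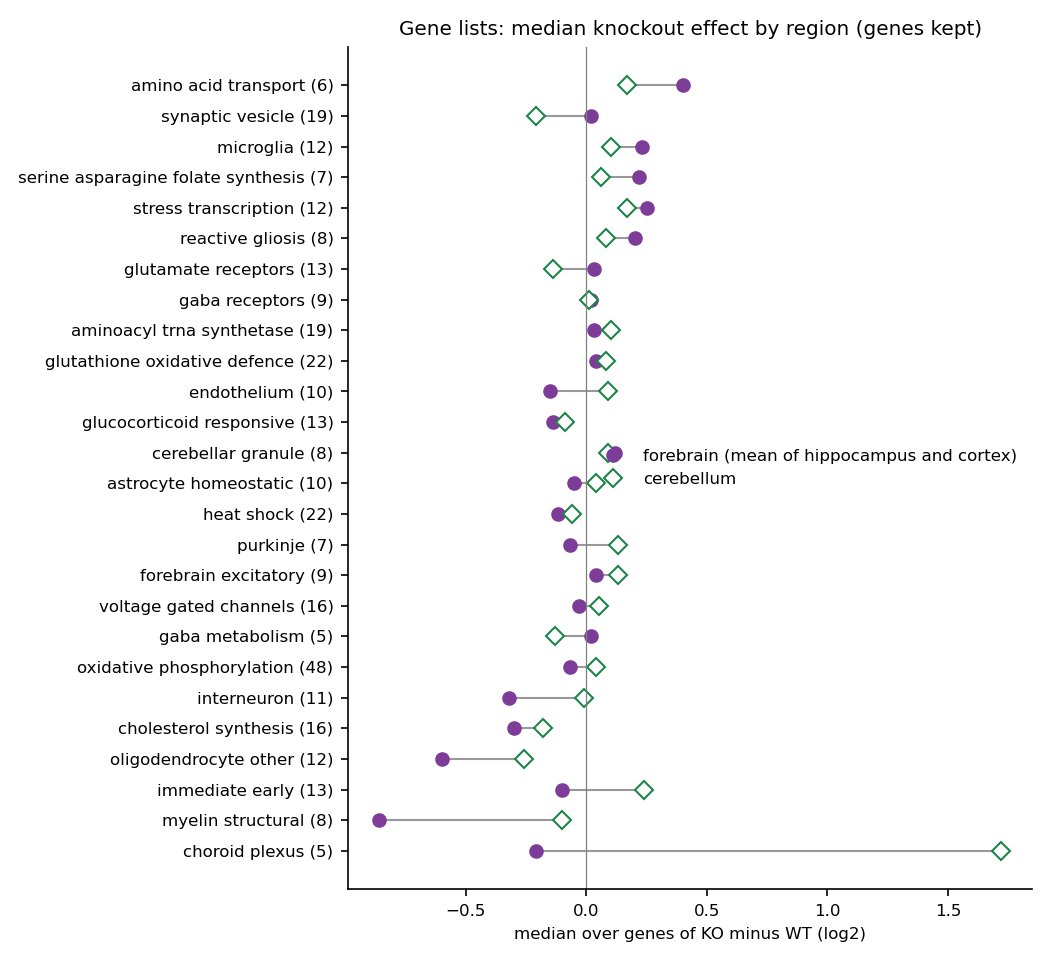
Median over genes of the KO minus WT effect (x axis, log2) for each list with at least 5 genes kept, filled circles for forebrain and open diamonds for cerebellum. The widest gaps are those of choroid plexus, whose animals overlap, and of myelin structural genes, at -0.86 in forebrain and -0.10 in cerebellum.

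The genes of GABA handling and reception showed no difference that passed. Of the 5 kept genes of GABA metabolism and transport, 2 had a higher KO effect in forebrain than cerebellum and 3 a lower one. Over all probe sets 47.1% were above 0 and 52.9% below. By limma 0 passed, with 0 at an unadjusted p under 0.05, beside 9.14% of all probe sets. Gad1, which makes most GABA, gave -0.14 ± 0.13, and Slc32a1, the vesicular GABA transporter, -0.22 ± 0.12. Of 9 kept GABA receptor genes 5 were higher and 4 lower, with a median of 0.04 (-0.09 without WT 3406, -0.05 without KO 3363 or WT 3396, 0.16 without WT 3405, 0.23 with no floor), and 0 passed by limma while 1, Gabra6, had an unadjusted p under 0.05. Gabra6 averaged 1827 ± 109 in KO and 2292 ± 184 in WT cerebellum (SD, n = 3 each), and its difference of 0.79 ± 0.29 rests in part on forebrain signals near the floor. Among 13 kept glutamate receptor genes 10 were higher and 3 lower, with a median of 0.12 (0.07 without KO 3363, 0.24 without KO 3389), and 0 passed by limma while 2 had an unadjusted p under 0.05. Gria1, an AMPA receptor subunit, gave 0.47 ± 0.13 (limma, adjusted p = 0.365), from 0.14 in forebrain and -0.32 in cerebellum.

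Markers of choroid plexus, the tissue of the brain ventricles that makes cerebrospinal fluid, differed widely among animals. Ttr, for the transport protein that choroid plexus makes in bulk, read 341, 1228 and 1907 in KO and 1475, 1902 and 1158 in WT hippocampus. In cerebellum it read 971, 266 and 1237 in KO and 27.0, 88.1 and 1112 in WT animals. The genotypes overlap in both regions, and the difference of -3.01 ± 1.15 did not pass (SE, limma, adjusted p = 0.467). In all 5 kept genes of this list the KO effect was lower in forebrain than in cerebellum, beside 52.9% of all probe sets. The median difference was -1.83 (-1.04 without KO 3363, -1.13 without WT 3406). By limma 0 passed and 3 had an unadjusted p under 0.05, beside 9.14% of all probe sets. The summed signal of 4 choroid plexus markers ranged from 349.6 to 2771 in KO and from 611 to 2723 in WT forebrain, and from 682 to 1947 in KO and from 273 to 1795 in WT cerebellum. None of the 4 was at or under the floor on all arrays, and their part in the results was not tested.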

How the data were processed

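The table the authors deposited gives linear intensity per probe set for each array, scaled to a 2% trimmed mean near 150.07. The software and settings behind that scaling are not given in the sources used here. Array medians ran from 53.5 to 64.8, and replicate arrays correlated at 0.955 to 0.976. Regions were read from titles and descriptions, since the source field says hippocampus throughout.

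After removal of 66 control probe sets, a floor at the 20th percentile (9.46) was applied. Probe sets above the 40th percentile of an array on 3 or more of the 18 arrays were kept, which left 8382. The log2 differences per animal were fitted with limma 3.58.1 in R 4.3.3 (lmFit, eBayes with an intensity trend, 4 residual degrees of freedom), with Benjamini-Hochberg adjustment over all kept probe sets at 0.05 and 95% intervals. Values with ± are SE for differences unless SD is stated. Fits were tested on simulated data. Probe sets were named through the platform's annotation, and 10839 of 10855 single symbols matched a GRCm38.p6 table; 396 had several symbols and 1237 none. For a gene with several probe sets, the list used the one with the highest mean.

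Arrays of an animal share its number in the labels, which gives the pairing. Their residuals correlated within an animal at -0.0836 to 0.195 (median 0.135, over 0.1 in 12 of 18 pairs). The median between animals was -0.0634. Residuals were taken from means of 3 animals, which ties the between-animal value to the within-animal one, so it is no independent reference. Genes were named by rule: up to 12 per direction, by size among those past the threshold and filled by lowest p, genes called in forebrain or cerebellum, and up to 4 per list by lowest p, with all members of the myelin and stress lists. The members and lists were chosen with earlier results of these data known. Alternatives were other scaling, floor, filter, fits and animals left out.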

Additional observations from a re-analysis of the deposited data

Results flagged for a closer look

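Mobp, the gene of myelin-associated oligodendrocyte basic protein, was singled out because its knockout effect differed between regions by the test of the difference itself. The effect in forebrain minus the effect in cerebellum was -1.43 on the log2 scale for 99046_at and -1.33 for 100536_at (limma, adjusted p = 0.0127 and 0.0287). The KO values of forebrain minus cerebellum were below the WT values in 3 of 3 animals for both probe sets, as in 621 of all probe sets (7.41%). Both were picked by this same difference, so the separation adds no support.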

How the results depend on the processing

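The direction of both Mobp probe sets held under all 17 alternatives, at -1.57 to -1.32 for 99046_at (adjusted p 0.00425 to 0.405, past the threshold in 10) and at -1.51 to -1.16 for 100536_at (0.00844 to 0.463, past it in 9). For the difference between the effects, 0 probe sets were higher and 2 lower as reported. Median scaling gave 1 higher, the fit of 18 arrays with no replicate block 1 higher, and the fit with the animal as replicate block 2 higher and 3 lower. Without a filter or without an intensity trend 0 were lower, as with hippocampus alone as forebrain, and with cortex alone 1 was lower. Leaving out 1 animal gave 0 to 7 higher and 0 to 11 lower, the most without WT 3405 (7 and 11) and next without WT 3396 (1 and 6), and 0 lower without KO 3363, KO 3389, KO 3403 or WT 3406. For forebrain, where 1 was higher and 4 lower, no floor gave 3 and 16, 16 added in place of the floor 3 and 15, the 60th percentile filter 3 and 15, no filter or no trend 0 and 0, no replicate block 17 and 34, and the animal as random replicate block 14 and 32. Leaving out 1 animal there gave 0 to 4 higher (4 without KO 3363) and 0 to 15 lower (15 without WT 3396). For cerebellum, where 0 were lower, 3 were lower both with no replicate block and with the animal as random replicate block. The fit of 18 arrays with the animal as replicate block changed the call of Mal, Lst1 and Nsf, as given beside them. Lst1 also passed with no replicate block (limma, adjusted p = 0.00176) and with median scaling (limma, adjusted p = 0.0382). The cause of these changes was not tested. With 3 animals a genotype, the median standard error was 0.216 for the difference, 0.126 for forebrain and 0.180 for cerebellum, and differences as large as that of Lst1 (2.13) did not pass after adjustment.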

Other observations

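Neurons switch on immediate early genes within minutes of activity. The KO effect on these genes was lower in forebrain than in cerebellum in 11 of 13 kept and higher in 2. The median difference was -0.34 on the log2 scale, and 52.9% of all probe sets were below 0. By limma 0 passed and 3 had an unadjusted p under 0.05, beside 9.14% of all probe sets. Fosb gave -0.60 ± 0.19 (SE, limma, adjusted p = 0.396) and Nr4a1 -0.78 ± 0.42, while Jun gave 0.47 ± 0.21. The list's median effect was -0.10 in forebrain and 0.24 in cerebellum, and the median difference was -0.16 without KO 3363 and -0.22 without WT 3406.

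For voltage-gated channel genes the KO effect was lower in forebrain than in cerebellum in 10 of 16 kept and higher in 6. The median difference was -0.12, and 52.9% of all probe sets were below 0. By limma 0 passed and 6 had an unadjusted p under 0.05, beside 9.14% of all probe sets. The median was -0.03 without KO 3389, -0.05 without WT 3405, -0.19 without KO 3363 and -0.22 without WT 3406. Kcnab1, a potassium channel subunit, gave -0.66 ± 0.19 (limma, adjusted p = 0.365) and Scn1a, a sodium channel of inhibitory neurons, -0.51 ± 0.15 (limma, adjusted p = 0.383). Of 22 heat shock and chaperone genes, 10 had a higher KO effect in forebrain and 12 a lower one, with a median of -0.08. By limma 0 passed and 4 had an unadjusted p under 0.05, beside 9.14% of all probe sets. That median was -0.16 without WT 3405, -0.05 without KO 3363, -0.02 without WT 3396 and 0.01 without WT 3406.

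Among the probe sets with the lowest p, 2 have no single gene name here. Probe set 95030_at gave -2.96 ± 0.46 (limma, adjusted p = 0.0771), from -0.76 in forebrain and 2.20 in cerebellum, and 92801_at gave -1.03 ± 0.16 (limma, adjusted p = 0.0771), from -1.22 in forebrain and -0.19 in cerebellum.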
